A study of Mus musculus with 4 samples.

Results

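J-domain co-chaperones were taken as every row of the deposited gene table whose symbol is Dnaja, Dnajb or Dnajc followed by a number and that held at least 1 count over the libraries. The pattern found 43 genes, of which Dnajb8 and Dnajc22 had 0 counts, so that 41 members remained of the 24621 genes with any count. They were compared in quadriceps muscle of 2 WT and 2 Mef2dα2 Eko mice, all C57BL6/J males of about 20 weeks that were sedentary and fed standard chow, with 1 polyA-selected library per mouse. Eko mice are homozygous for a germline CRISPR-Cas9 deletion of α2, the muscle-specific exon of the transcription factor gene Mef2d, in every tissue, and WT mice come from the same heterozygous crosses. The paper calls the sequenced mice littermates, and the founder line behind these libraries is not given in the sources used here. Libraries held between 72626757 and 85176059 counts. The α2 exon itself cannot be read from counts per gene: Mef2d as a whole was at 259 and 227 CPM (counts scaled to the library size) in WT and at 252 and 241 CPM in Eko mice, a log2 fold change of 0.02 that did not pass the test (edgeR quasi-likelihood, Benjamini-Hochberg adjusted p = 0.960), so this level does not check the genotype labels.

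A J-domain protein hands an unfolded or partly folded protein to an HSP70 chaperone and stimulates that chaperone's ATPase, so the J-domain partner sets where an HSP70 works and on what. Class A members carry a zinc-binding region and a glycine- and phenylalanine-rich region beside the J domain, class B members lack the zinc-binding region, and class C members share little more than the J domain and serve narrow tasks at ribosomes, vesicles, the endoplasmic reticulum (ER) or mitochondria. In striated muscle these chaperones and the cofactor BAG3 tend proteins of the sarcomere that are unfolded by mechanical load, and mutations of DNAJB6 and BAG3 cause myopathy in people.

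Of the 41 members, 38 passed the filter on low counts. In the comparison of Eko with WT quadriceps 1 member passed the test, Dnaja4, which fell, and 0 members rose (edgeR quasi-likelihood test, adjusted p below 0.05), against 0.416% of the 16120 genes tested. At an unadjusted p below 0.05 there were 3 members lower in Eko mice (Dnaja4, Dnajb2 and Dnaja1), beside 6.41% of all genes, and 1 higher (Dnajb9), beside 5.15%, together 10.5% of the tested members and 11.6% of all genes. DESeq2 called 1 member as well, and 1.97% of all genes. The median log2 fold change of the tested members was -0.00083, beside -0.0051 over all genes tested, with 19 members below 0 and 19 above. The libraries of one genotype lay wholly below or above those of the other in 15 members, or 39.5%, against 43.8% of all genes, so that share was near the background. With 2 mice against 2, an exact permutation test of a single gene cannot give a p below 0.333, and the tests rest on a spread shared among genes.

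**Figure D1:**
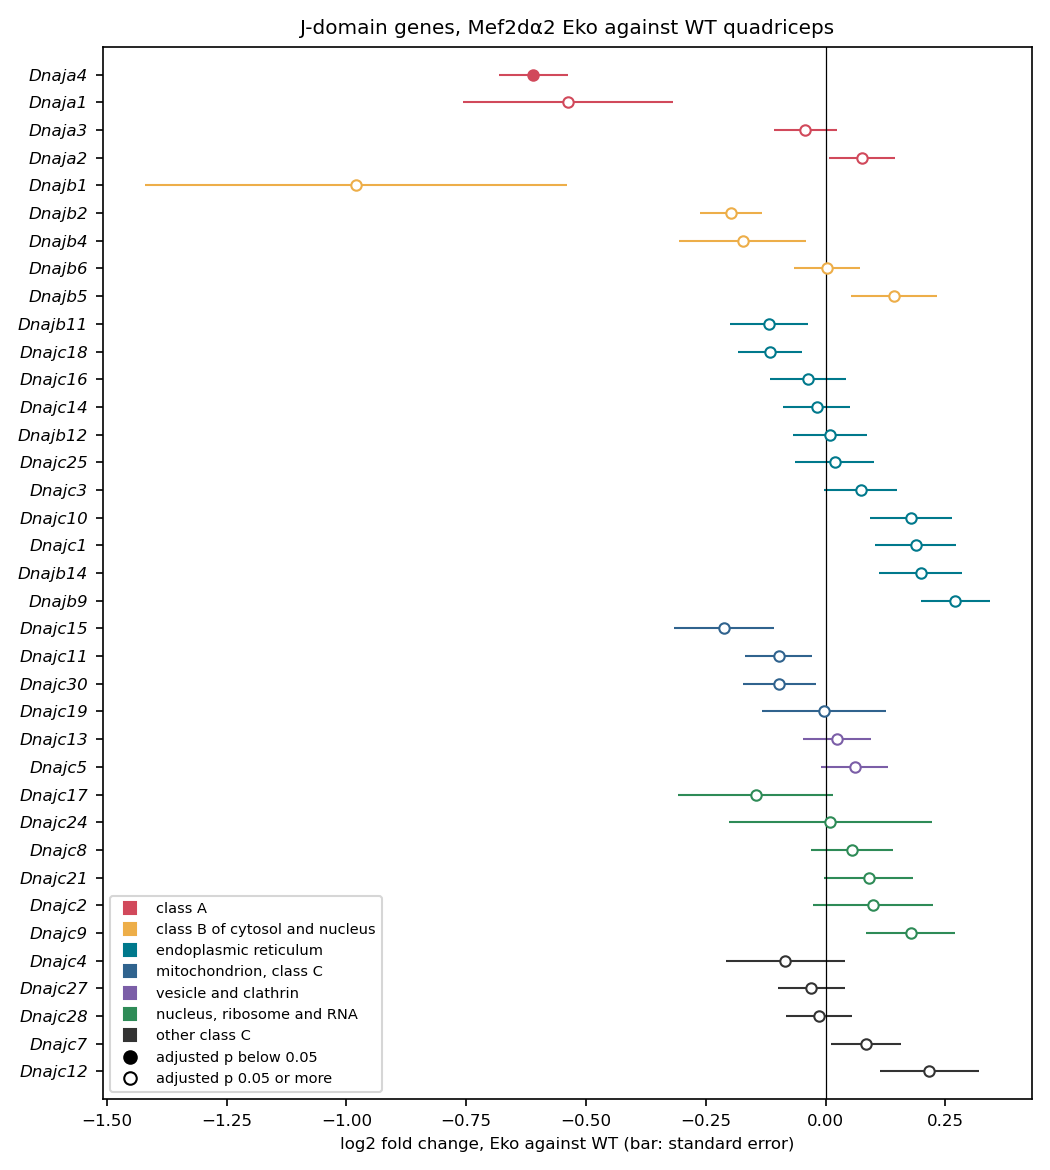
Log2 fold change of Eko against WT for 37 of the tested J-domain genes, ordered by role, with bars for the standard error. Filled points passed edgeR's quasi-likelihood test (adjusted p under 0.05), which holds for Dnaja4 alone. Dnajb7, with a standard error of 0.96, was left out of the plot.

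Class A holds the general-purpose HSP70 partners. Dnaja4, a cytosolic member related to Dnaja1, was at 93.2 and 92.7 CPM in WT and at 63.7 and 58.1 CPM in Eko mice. Both Eko mice lay well below both WT mice, while the WT mice were nearly equal. The mean in Eko mice was 65.5% of that in WT mice, a log2 fold change of -0.61 ± 0.07 (SE, n = 2 per genotype, edgeR quasi-likelihood, Benjamini-Hochberg adjusted p = 0.0424). With any single library left out the log2 fold change lay between -0.66 and -0.55, and the call was made in 14 of 15 alternative analyses. It was lost when genes had to reach 1 CPM in 2 libraries (adjusted p = 0.0541). The gene, ENSMUSG00000032285.15, spans chr9:54698873-54716315 on the plus strand of GRCm38 and overlaps Wdr61 on the other strand. The library kit marks strand, but the strand setting used in counting is not given in the sources used here.

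Dnaja1, a farnesylated cytosolic partner of HSP70, was at 44.1 and 71.9 CPM in WT mice and at 35.5 and 44.5 CPM in Eko mice. WT replicate 2 stood above the other libraries, and WT replicate 1 lay between the Eko mice. The log2 fold change of -0.54 ± 0.22 had an unadjusted p of 0.0444 and did not pass the test after adjustment (edgeR quasi-likelihood, adjusted p = 0.419). It was -0.13 without WT replicate 2. Without WT replicate 1 it was -0.85 and passed the test (adjusted p = 0.0291), so its call depended on which WT mouse was used.

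Dnaja2, a constitutive cytosolic partner of HSC70, was at 179 and 188 CPM in WT mice and at 188 and 200 CPM in Eko mice. Dnaja3, the class A member of the mitochondrial matrix, was at 95.0 and 93.2 CPM in WT mice and at 89.1 and 93.6 CPM in Eko mice. The genotypes of both genes overlapped, and neither passed the test.

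Class B members of the cytosol and nucleus include the heat-inducible Dnajb1, the classical partner of inducible HSP70 in refolding. It was at 7.09 and 21.0 CPM in WT mice and at 6.28 and 8.01 CPM in Eko mice. WT replicate 2 had 2.97 times the level of WT replicate 1, the widest gap between mice of a genotype among members of at least 1 CPM, while the other 3 libraries lay close together. The log2 fold change of -0.98 ± 0.44 did not pass the test (edgeR quasi-likelihood, adjusted p = 0.458). It was 0.02 without WT replicate 2 and -1.56 without WT replicate 1 (adjusted p = 0.00554). The value of Dnajb1 therefore turned on 1 WT library. Dnajb1 and Dnaja1 were the 2 members with WT replicate 2 at least 1.5 times WT replicate 1, as were 4.84% of all genes tested.

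Dnajb4, which also associates with HSP70 and is abundant in muscle and heart, was at 57.8 and 75.5 CPM in WT mice and at 55.1 and 63.0 CPM in Eko mice. The genotypes overlapped, with WT replicate 2 highest again at 1.31 times WT replicate 1. Its log2 fold change was -0.17 ± 0.13 (edgeR quasi-likelihood, adjusted p = 0.667) and 0.05 without WT replicate 2.

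Dnajb2, which joins a J domain to ubiquitin-interacting motifs and passes HSP70 clients to the proteasome, was at 58.9 and 60.1 CPM in WT mice and at 51.7 and 52.0 CPM in Eko mice. The difference was small but clear of the spread between these mice, with both Eko mice lower. The log2 fold change of -0.20 ± 0.06 had an unadjusted p of 0.0185 and did not pass after adjustment (edgeR quasi-likelihood, adjusted p = 0.326). It kept its sign in every alternative, between -0.21 and -0.12.

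The most abundant members of this group were level or overlapped between the genotypes. Dnajb5, a relative of Dnajb1 and Dnajb4, was at 190 and 205 CPM in WT mice and at 234 and 202 CPM in Eko mice. Dnajb6, the suppressor of protein aggregation found at the Z-disc of muscle, was at 85.3 and 91.5 CPM in WT mice and at 87.9 and 89.3 CPM in Eko mice. Eko replicate 1 was highest for Dnajb5, and for Dnajb6 both Eko mice lay between the WT mice. The class B members known from testis, Dnajb3, Dnajb7 and Dnajb13, held at most 0.184 CPM in any library. Dnajb7 was at 0.184 and 0.0742 CPM in WT and 0.174 and 0.0140 CPM in Eko mice, and Dnajb3 at 0.0659 and 0.0247 CPM in WT and at 0.0464 and 0 CPM in Eko mice, near or under the floor of 3 counts in some libraries. Dnajb3 and Dnajb13 did not pass the filter on low counts, with at most 5 counts in a library.

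Heat shock transcription factor HSF1 binds repeats of the unit GAA, each inverted against the next, which is the reason for showing promoter sequence here. RefSeq windows of GRCm38.p6, from 250 bases before to 50 bases after a transcription start, were at hand for 35 of the 41 members, in 48 windows, and not for Dnajc2, Dnajc5, Dnajc11, Dnajc12, Dnajc18 and Dnajc30. The Dnaja4 window shown, for the member that passed the test, lies at chr9:54699309-54699608 on the plus strand, that of Dnaja1 at chr4:40722218-40722517 on the plus strand and that of Dnajb4 at chr3:152193796-152194095 on the minus strand. The window of Dnajb6 at chr5:29735648-29735947 and that of Dnajb1 at chr8:83607925-83608224, both on the plus strand, are shown for contrast. Capitals mark 2 facing units, GAANNTTC or TTCNNGAA, where N is any base.
Dnaja4: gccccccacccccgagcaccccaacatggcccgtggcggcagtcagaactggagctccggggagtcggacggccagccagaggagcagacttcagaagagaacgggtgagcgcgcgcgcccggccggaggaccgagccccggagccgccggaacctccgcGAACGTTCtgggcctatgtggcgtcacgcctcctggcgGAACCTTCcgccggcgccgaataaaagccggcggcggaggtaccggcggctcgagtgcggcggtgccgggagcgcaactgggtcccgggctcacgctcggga
Dnaja1: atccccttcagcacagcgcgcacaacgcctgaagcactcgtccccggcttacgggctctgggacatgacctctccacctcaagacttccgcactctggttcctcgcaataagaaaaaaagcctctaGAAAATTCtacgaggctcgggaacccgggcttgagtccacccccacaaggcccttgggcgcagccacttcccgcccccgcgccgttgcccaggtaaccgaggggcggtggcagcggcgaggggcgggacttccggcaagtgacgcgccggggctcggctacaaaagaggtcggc
Dnajb4: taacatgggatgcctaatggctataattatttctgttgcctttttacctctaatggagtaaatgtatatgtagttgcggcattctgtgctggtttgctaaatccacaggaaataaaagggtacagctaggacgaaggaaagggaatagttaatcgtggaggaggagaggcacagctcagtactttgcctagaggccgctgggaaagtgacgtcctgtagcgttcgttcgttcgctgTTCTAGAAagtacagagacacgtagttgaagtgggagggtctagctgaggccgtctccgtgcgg
Dnajb6: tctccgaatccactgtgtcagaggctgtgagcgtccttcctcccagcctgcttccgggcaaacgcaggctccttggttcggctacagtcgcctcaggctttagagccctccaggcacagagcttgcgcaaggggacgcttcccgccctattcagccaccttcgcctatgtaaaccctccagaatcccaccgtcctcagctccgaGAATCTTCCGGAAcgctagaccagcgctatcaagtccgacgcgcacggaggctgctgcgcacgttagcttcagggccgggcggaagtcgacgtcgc
Dnajb1: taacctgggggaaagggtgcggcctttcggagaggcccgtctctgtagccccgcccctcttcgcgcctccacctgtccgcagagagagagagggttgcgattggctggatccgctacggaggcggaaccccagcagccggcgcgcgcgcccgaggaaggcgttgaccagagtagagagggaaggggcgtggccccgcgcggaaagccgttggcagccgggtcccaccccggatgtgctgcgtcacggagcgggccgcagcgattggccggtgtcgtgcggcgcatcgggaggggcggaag

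Both letter patterns read the same on either strand. Of the genes shown with a match, Dnaja4 and Dnajb4 each have 1 further window and Dnaja1 has 2, and none of these holds the pattern. Neither of the 2 Dnajb1 windows does. The Dnaja4 window holds 2 matches, GAACGTTC from base -90 and GAACCTTC from base -52 relative to the start. The Dnaja1 window holds GAAAATTC from base -124, and the Dnajb4 window TTCTAGAA from base -14. A run of 3 units (GAA, TTC and GAA, or TTC, GAA and TTC, with 2 bases of any kind between units, each of which contains the shorter pattern) was found in 0.603% of 32851 windows of all genes and in those of 1 member, Dnajb6, whose level did not differ by genotype beyond the spread. The run there reads GAATCTTCCGGAA from base -46, and a second Dnajb6 window that overlaps the first holds the same run. The shorter pattern stood in 15.1% of all windows and in 7 of the 48 member windows, a share near that of all windows. These 7 windows belong to 6 members: Dnaja1, Dnaja4, Dnajb4, Dnajb6, Dnajc10 and Dnajc27. The MEF2 letters, CTA and TAG with 4 bases of any kind between them, searched on both strands, stood in 3.69% of all windows and in windows of 3 members, Dnajb2, Dnajb7 and Dnajc1, and not in those of Dnaja4. These matches describe letters in a window and carry no evidence of binding.

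Companion genes were taken from lists of the HSP70 family, its nucleotide exchange factors and cofactors, HSF1 targets, the unfolded protein response, the mitochondrial import motor, immediate early genes and J-domain genes with other symbols, 69 genes tested in all. Of these 4 fell in Eko mice (Hsph1, Hspa4l, Hspa1l and Bag3) and 0 rose (edgeR quasi-likelihood), where 0.31% of all genes tested were called lower and 0.105% higher. At an unadjusted p under 0.05 there were 17 lower and 1 higher, beside 6.41% and 5.15% of all genes. Of 10 immediate early genes 0 were called, 1 was lower and 1 higher at an unadjusted p under 0.05, and DESeq2 called 1 lower. Hsph1 and Hspa4l encode HSP110-type nucleotide exchange factors that reset HSP70, Hspa1l a relative of inducible HSP70, and Bag3 the exchange factor that couples HSP70 to autophagy of sarcomere proteins.

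Hsph1 was at 139.6 and 141 CPM in WT mice and at 87.8 and 96.5 CPM in Eko mice, a log2 fold change of -0.61 ± 0.07 (edgeR quasi-likelihood, adjusted p = 0.0424). Hspa4l was at 14.3 and 16.1 CPM in WT mice and at 7.92 and 9.03 CPM in Eko mice, a log2 fold change of -0.84 ± 0.11 (adjusted p = 0.0463). In all 4 of these genes, as in Dnaja4, both Eko mice lay below both WT mice and the WT mice were close. Hspa1l was at 44.7 and 46.4 CPM in WT mice and at 32.6 and 30.6 CPM in Eko mice (log2 fold change -0.53 ± 0.07, adjusted p = 0.0481). Bag3 was at 183 and 176 CPM in WT mice and at 125 and 131 CPM in Eko mice (log2 fold change -0.49 ± 0.07, adjusted p = 0.0480). Across the 15 alternatives Hsph1 was called in 15, Hspa4l in 14, Hspa1l in 10 and Bag3 in 9.

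Of 17 known HSF1 target genes other than the J-domain members, 2 were called lower (Hsph1 and Bag3) and 0 higher, and the log2 fold change was below 0 in all 17, with a median of -0.38. In 16 of the 17 the Eko mice lay wholly below the WT mice, against 23% of all genes tested. Hsp90ab1 was the exception. The same list without WT replicate 2 had 16 of 17 log2 fold changes below 0, a median of -0.34 and 5 genes called lower. DESeq2 called 8 of the 17 lower and 0 higher. The number called lower was 1 with RLE normalization, with a GC or a length correction or when genes had to reach 1 CPM in 2 libraries, and 13 with no filter on low counts.

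Of the 17 HSF1 targets, 3 had WT replicate 2 at least 1.5 times WT replicate 1, as Dnajb1 did. The median of this ratio over the list was 1.10. Hspa1a, an inducible HSP70, was at 24.3 and 90.0 CPM in WT mice and at 7.02 and 11.8 CPM in Eko mice. Its near-identical copy Hspa1b, between which RSEM's model divides shared reads, was at 18.4 and 78.6 CPM in WT mice and at 3.98 and 9.26 CPM in Eko mice. Hsp90aa1, the inducible cytosolic HSP90, was at 65.5 and 126 CPM in WT mice and at 43.6 and 53.1 CPM in Eko mice. WT replicate 2 was highest for each of the 3, and unlike for Dnajb1 and Dnaja1 the lower WT mouse was still above both Eko mice. None of the 3 passed the test after adjustment (edgeR quasi-likelihood, adjusted p between 0.178 and 0.262).

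**Figure D2:**
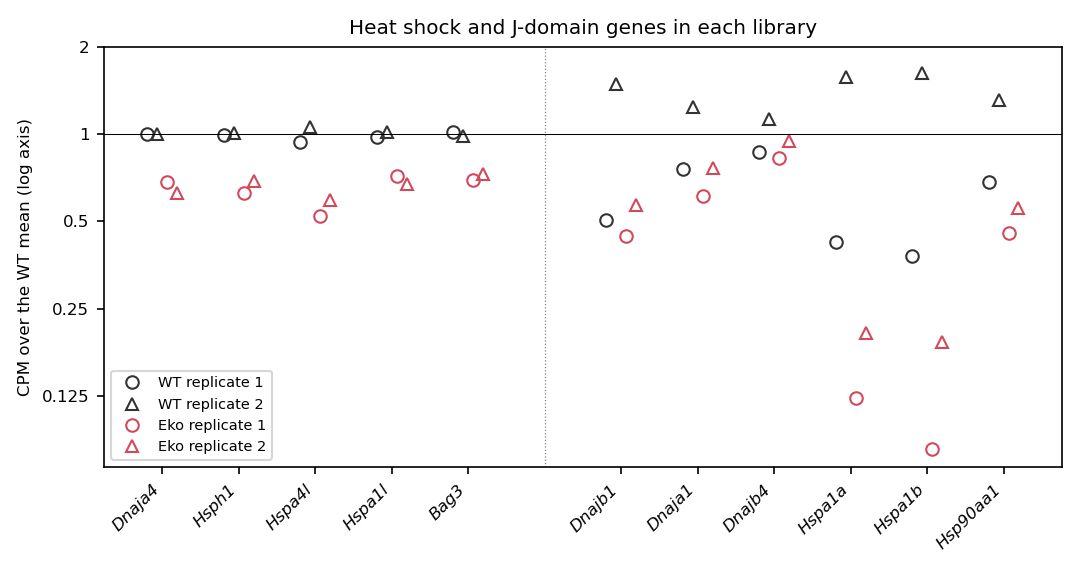
CPM of each library divided by the mean of the WT mice (log axis) for Dnaja4 and the companion genes called (left of the dotted line) and for heat-inducible genes and J-domain members that were not called (right). On the left both Eko mice sit below both WT mice, which lie near each other, and on the right WT replicate 2 (dark triangle) stands above the other libraries.

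Marker lists of other cells in the muscle did not all move in the same direction. Nerve and Schwann cell markers summed to 40.3 and 42.7 CPM in WT and 44.5 and 53.7 CPM in Eko mice. Of these 6 genes, 2 were higher and 0 lower at an unadjusted p under 0.05 (edgeR quasi-likelihood). Of the 6 fibroblast markers, 0 were higher and 2 lower by that measure. No endothelial, erythroid or satellite cell marker had an unadjusted p under 0.05. The summed level of 7 adipocyte markers was 168 and 100 CPM in WT and 95.3 and 71.7 CPM in Eko mice. Fabp4 led this sum, at 86.9 and 68.8 CPM in WT and 68.8 and 60.2 CPM in Eko mice. Lep was the 1 adipocyte marker with a log2 fold change above 0 (0.21). The summed level of 7 macrophage markers was 53.2 and 42.3 CPM in WT and 36.4 and 28.4 CPM in Eko mice. No adipocyte or macrophage marker was at 0 or called by edgeR's quasi-likelihood test. An unadjusted p under 0.05 was found for 4 and 5 of them, all lower. DESeq2 called 0 and 1. The adipocyte and macrophage sums were both lower in Eko mice and highest in WT replicate 1. The sum of 8 slow fibre markers was 402 and 905 CPM in WT and 615 and 396 CPM in Eko mice, so this sum was highest in WT replicate 2. Casq2 among them was highest in Eko replicate 1, at 25.8 CPM against 20.4 CPM in WT replicate 2. The part of any of these in the levels of Dnaja4 or of the heat shock genes was not tested. In whole muscle, fewer cells of a type and less RNA per cell cannot be told apart. The 10 fast skeletal muscle markers all had counts and summed to between 130504 and 135866 CPM in every library, a sum led by Myh4. Among them Myh1, the myosin of fibre type IIX, was at 4967 and 3984 CPM in WT and 3476 and 3121 CPM in Eko mice, and Myh2, that of type IIA, at 1576 and 1709 CPM in WT and 1264 and 1041 CPM in Eko mice. Both Eko mice lay below both WT mice for each, as for Dnaja4. These were the 2 fast markers with an unadjusted p under 0.05, 0 of the 10 were called (edgeR quasi-likelihood), and DESeq2 called 2 lower and 0 higher. Their part in the levels of Dnaja4 and the heat shock genes was not tested either.

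ER members guide folding, disulfide exchange and export of proteins in the secretory pathway. None of the 11 was called by edgeR's quasi-likelihood test or by DESeq2, and 1 had an unadjusted p under 0.05. Dnajb9 (ERdj4), a target of the unfolded protein response that restrains its sensor IRE1, was at 39.5 and 37.5 CPM in WT mice and at 45.1 and 47.9 CPM in Eko mice. Both Eko mice were above both WT mice. Its log2 fold change of 0.27 ± 0.07 was the highest of any tested member and had an unadjusted p of 0.00745, but it did not pass after adjustment (edgeR quasi-likelihood, adjusted p = 0.247).

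Higher in both Eko mice were also Dnajc10 (ERdj5), a disulfide reductase for misfolded proteins, at 20.9 and 23.9 CPM in WT and 25.2 and 25.6 CPM in Eko mice, Dnajb14, an ER membrane member, at 28.6 and 25.3 CPM in WT and 29.8 and 32.0 CPM in Eko mice, and Dnajc1, which sits at the translocon and ribosome, at 15.1 and 16.6 CPM in WT and 17.5 and 18.6 CPM in Eko mice. Their log2 fold changes were 0.18 ± 0.09, 0.20 ± 0.09 and 0.19 ± 0.08, each with an adjusted p of at least 0.453 in edgeR's quasi-likelihood test. With any single library left out they ran from 0.09 to 0.29, from 0.13 to 0.29 and from 0.13 to 0.27. Both Eko mice were lower for Dnajb11 (ERdj3), the soluble partner of BiP, at 25.8 and 28.8 CPM in WT and 25.0 and 25.4 CPM in Eko mice. The same held for Dnajc18, an ER membrane member, at 35.0 and 34.1 CPM in WT and 31.9 and 31.9 CPM in Eko mice. The ER members thus stood apart in 4 cases above and in 2 below, beside 20.8% and 23% of all genes.

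The most abundant ER member per length was Dnajb12, which works in ER-associated degradation, at 78.6 and 73.5 CPM in WT and 73.1 and 80.0 CPM in Eko mice. Dnajc3 (p58IPK), an inhibitor of the kinase PERK, was at 36.3 and 39.9 CPM in WT and 39.7 and 40.5 CPM in Eko mice. The genotypes of both overlapped. The Dnajc3 promoter window was the one member window to hold the ER stress response element (CCAAT and CCACG with 9 bases of any kind between them, on either strand), found in 0.119% of all windows, as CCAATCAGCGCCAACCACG from base -105. Of 12 genes of the unfolded protein response outside the family, 0 were called by edgeR's quasi-likelihood test, 0 by DESeq2, and 0 had an unadjusted p under 0.05. Hspa5, which encodes BiP, was at 134 and 144 CPM in WT and 145 and 156 CPM in Eko mice.

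Mitochondrial members of class C serve protein import and the inner membrane. Dnajc15, of the import motor, was at 17.4 and 14.5 CPM in WT and 13.9 and 13.6 CPM in Eko mice (log2 fold change -0.21 ± 0.10, edgeR quasi-likelihood, adjusted p = 0.496). With any single library left out this log2 fold change lay between -0.32 and -0.07. Dnajc11, a partner of the complex that shapes cristae, was at 28.6 and 27.5 CPM in WT and 26.4 and 26.0 CPM in Eko mice. Dnajc30, which binds the ATP synthase, was at 22.3 and 21.2 CPM in WT and 19.8 and 20.9 CPM in Eko mice. In these 3 of the 4 members the Eko values were the lower ones, as in 23% of all genes, by margins that did not pass the test.

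The exception was Dnajc19, the J-domain subunit of the import motor, at 11.7 and 10.3 CPM in WT and 12.1 and 9.80 CPM in Eko mice. Its related pseudogene Dnajc19-ps held between 3.08 and 3.86 CPM, so the division of reads between them adds uncertainty. Of 9 other genes of the mitochondrial import motor, none was called in either direction (edgeR quasi-likelihood), and none had an unadjusted p below 0.05.

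**Figure D3:**
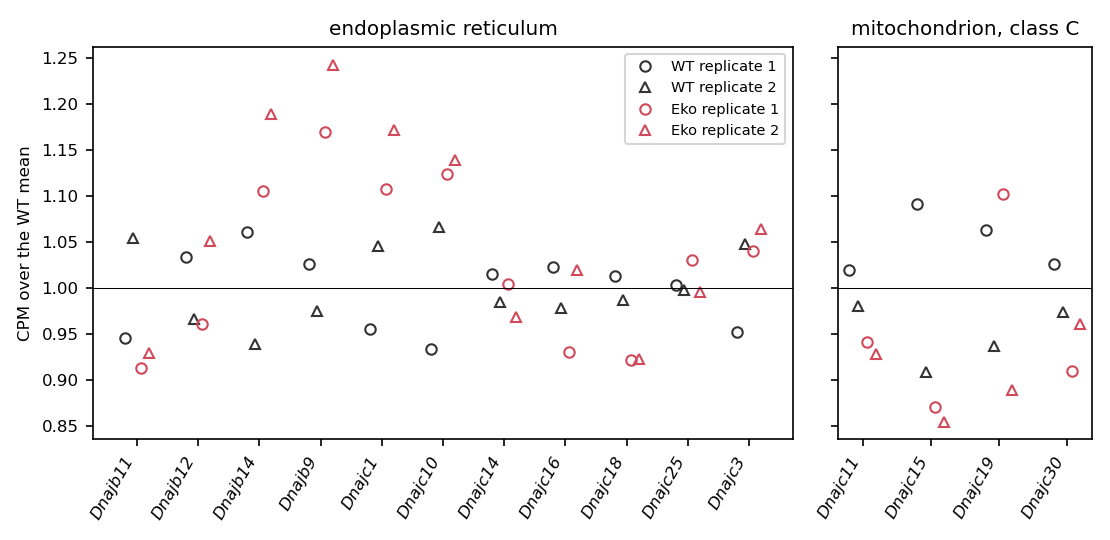
CPM of each library divided by the mean of the WT mice (linear axis) for the 11 ER members and the 4 mitochondrial class C members. Dnajb9, Dnajb14, Dnajc1 and Dnajc10 have both Eko mice above both WT mice, while Dnajb11 and Dnajc18 of the ER and Dnajc11, Dnajc15 and Dnajc30 of mitochondria have both below, with all values between 0.8 and 1.3 times the WT mean.

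Members of vesicles, of the nucleus and ribosome and of other class C tasks differed little. Dnajc5, the cysteine-string protein of synaptic vesicles, was at 49.2 and 52.0 CPM in WT and 53.9 and 51.7 CPM in Eko mice, and Dnajc13, of endosomes, at 39.7 and 41.3 CPM in WT and 40.0 and 42.3 CPM in Eko mice. The genotypes of both overlapped. Dnajc6, the clathrin-uncoating auxilin of neurons, had at most 2 counts in a library.

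Dnajc21, which helps to mature the large ribosomal subunit, was at 63.0 and 74.1 CPM in WT and 70.7 and 75.2 CPM in Eko mice. Dnajc8, a spliceosome-associated member, was at 23.5 and 26.7 CPM in WT and 26.4 and 25.7 CPM in Eko mice. Neither pair of genotypes stood apart. Dnajc9, a histone chaperone, was at 11.8 and 13.0 CPM in WT and 13.6 and 14.6 CPM in Eko mice, with both Eko mice higher (log2 fold change 0.18 ± 0.09, edgeR quasi-likelihood, adjusted p = 0.518). Dnajc17, a member of the nucleus, was at 2.62 and 2.40 CPM in WT and 2.29 and 2.25 CPM in Eko mice, with both Eko mice lower. Dnajc2, which acts at the ribosome, and Dnajc24, of diphthamide synthesis, overlapped between genotypes.

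Dnajc27, which joins a J domain to a small GTPase fold, was at 106 and 114 CPM in WT and 105 and 110 CPM in Eko mice. Dnajc28 was at 38.9 and 38.3 CPM in WT and 37.3 and 39.2 CPM in Eko mice. These genotypes overlapped. Dnajc7, a partner of both HSP70 and HSP90, was at 48.4 and 44.6 CPM in WT and 48.8 and 49.9 CPM in Eko mice, with both Eko mice higher. Dnajc12, a partner of the aromatic amino acid hydroxylases, was at 6.47 and 6.60 CPM in WT and 7.35 and 7.84 CPM in Eko mice (log2 fold change 0.22 ± 0.10, edgeR quasi-likelihood, adjusted p = 0.487).

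The remaining differences were narrow. Of the 38 tested members 33 had a log2 fold change within 0.25 of 0, and 3 exceeded 0.5 in size (Dnaja4, Dnaja1 and Dnajb1). The median size of the log2 fold change was 0.097 among members and 0.14 among all genes tested. Leaving aside the 12 members whose log2 fold changes are given above, those of the other 25 at 1 CPM or more lay between -0.15 and 0.14. For the 33 members with a mean of at least 10 CPM the standard errors ran from 0.065 to 0.44 with a median of 0.077. Dnajb9 and Dnajb2, whose differences were over 3 times their errors, did not pass the test with 2 mice per genotype. Sec63, a J-domain gene of the ER translocon with another symbol, was at 27.8 and 25.3 CPM in WT and 28.7 and 29.4 CPM in Eko mice and was not called (edgeR quasi-likelihood, adjusted p = 0.576).

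Levels can be compared between genes once divided by exon length. On the scale of CPM per kilobase of exons (RPKM), quadriceps held Dnaja2 at the highest level, 63.4 ± 2.80 (SD over the 4 libraries), followed by Dnajb5 at 35.0 ± 3.15. The libraries of Dnaja2 lay between 60.3 and 67.1 RPKM and those of Dnajb5 between 32.0 and 39.4 RPKM, so this order held in every library. Dnaja3 at 23.7 ± 0.644 RPKM, Dnajb12 at 22.6 ± 1.04 RPKM and Dnajc27 at 21.4 ± 0.754 RPKM followed, and neighbours among these did not differ beyond their spread. Dnaja4 had a mean of 21.4 RPKM but changed place with genotype. It lay above Dnajc27 in WT mice, at 26.0 and 25.8 RPKM, and below it in Eko mice, at 17.7 and 16.2 RPKM. This held with the longest transcript as length too, where Dnaja4 was at 31.0 and 30.9 in WT and at 21.2 and 19.4 in Eko mice. Against Dnaja3 the order in WT mice turned on the length used, with Dnaja4 higher by exon union and lower by longest transcript (Dnaja3 at 35.9 and 35.2).

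The heat-inducible Dnajb1 was low in this resting muscle, at 3.31 RPKM, or rank 28 of 41, and Dnaja1 was at 5.68 RPKM. In all, 13 members were above 10 RPKM and 5 below 1 RPKM. The 5 highest members made up 43.0% of the summed level of the family. Summed over members, the CPM were 1658 and 1764 in WT and 1675 and 1698 in Eko mice, so the total for the family overlapped between the genotypes. With the longest transcript as length in place of the union of exons, no member moved by more than 5 ranks, but the computed levels were higher for some, such as Dnajb6 from 14.6 to 30.3, Dnajc21 from 14.8 to 25.7 and Dnajc7 from 9.85 to 20.6. By that length 16 members were above 10 and 4 below 1.

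**Figure D4:**
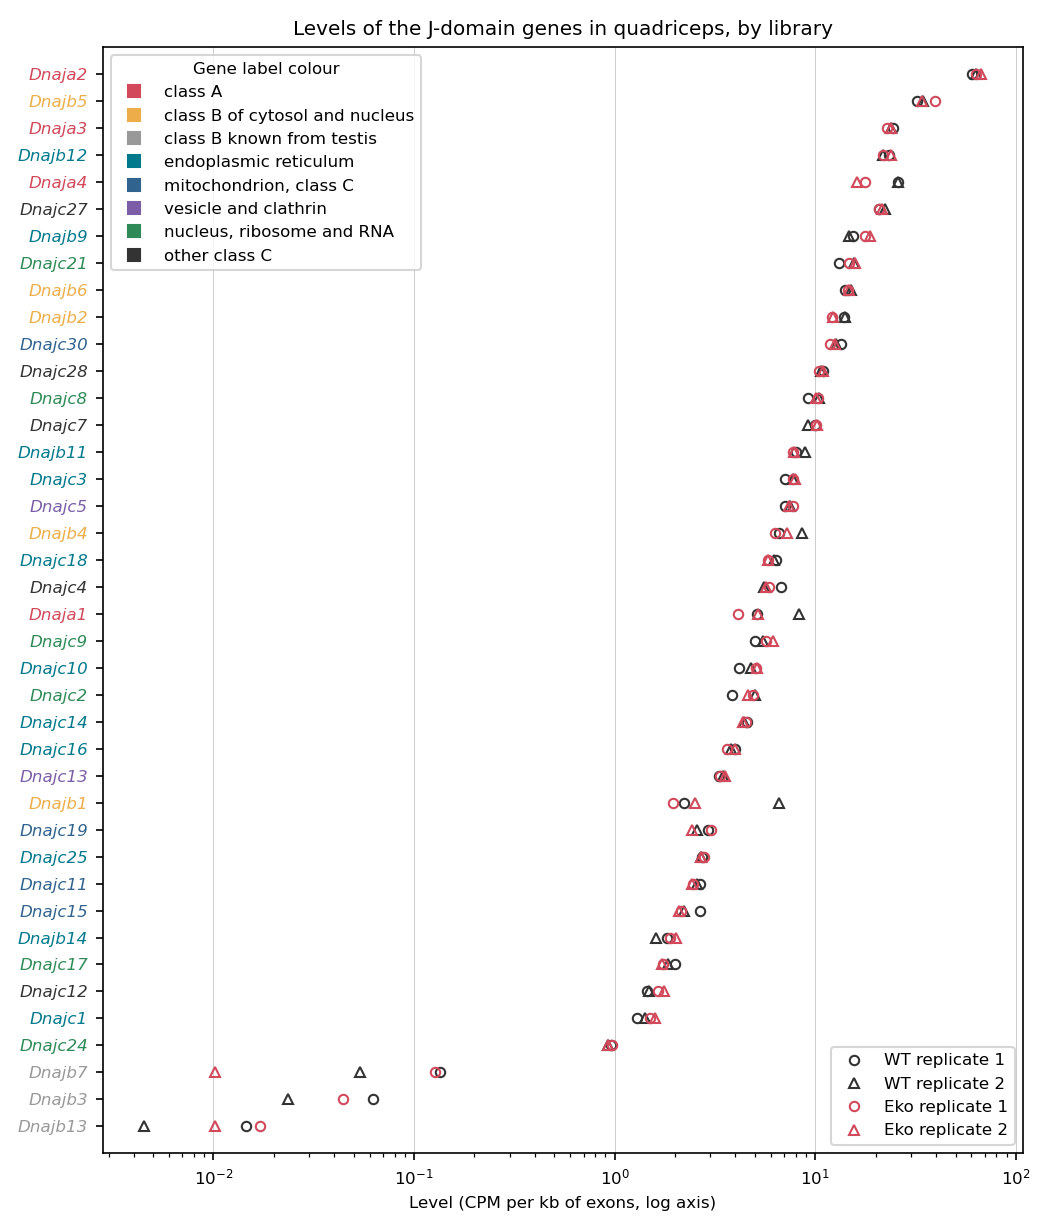
Level in CPM per kilobase of exons (log axis) of the J-domain genes in each library, ordered by the mean, with gene names coloured by role. Dnaja2 is highest at 63.4, Dnaja4 shows the WT mice to the right of the Eko mice, and Dnajb1 shows WT replicate 2 apart from the other libraries. Dnajc6, at 0.0021, and a value of 0 for Dnajb3 in Eko replicate 2 are not drawn.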

How the data were processed

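PolyA RNA of quadriceps was sequenced from 2 WT and 2 Eko mice, with genotype and replicate taken from the sample labels. The authors aligned reads to mm10 (GRCm38) and estimated expected counts per gene with RSEM, and these expected counts were deposited without normalization. The submitters' processing notes name STAR 2.6.1a. All deposited values were whole numbers, so rounding changed 0 values. RSEM divides reads that match several genes by a probability model.

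Genotypes were compared in R 4.3.3 by edgeR 4.0.16 (quasi-likelihood test) with no term but genotype, after TMM normalization and edgeR's default low-count filter, with Benjamini-Hochberg adjustment over all 16120 genes tested. CPM are scaled by the TMM library sizes, log2 fold changes use a prior count of 0.125, and 3 counts, the floor of a library, amounted to 0.0348 to 0.0419 CPM (counting error only). Positions and exon lengths came from GENCODE on GRCm38, and promoters from RefSeq. P-values set the genotype difference against the spread between 2 mice per genotype, as estimated with a spread shared among genes. Alternatives were DESeq2 1.42.0 with and without independent filtering, the likelihood ratio test, limma-voom (limma 3.58.1), RLE and upper-quartile normalization, no filter or at least 1 CPM in 2 libraries, a replicate block, GC and length corrections and leaving out each mouse. The fits were tested on simulated data.

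The members and gene lists were chosen with earlier results of these data known. Any member could be named. Values in every library are given for members with an adjusted or unadjusted p below 0.05, the 2 highest by RPKM in each role, and the 3 with the widest ratio between mice of a genotype at 1 CPM or more. Values of Dnajc3, of further members whose genotypes did not overlap, and of companion genes that were not called, were chosen after they were seen. The values of 1 companion gene are not reported here.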

Additional observations from a re-analysis of the deposited data

How the results depend on the processing

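Across the 15 alternatives Dnaja4 stayed lower in Eko mice, with a log2 fold change between -0.66 and -0.55. The number of J-domain genes called was 1 as reported, 3 without a filter on low counts (all lower, with Dnajb1 and Dnaja1 added) and 0 with at least 1 CPM in 2 libraries, and it was between 1 and 3 with a mouse left out. With a mouse left out the log2 fold change of Dnajb1 ran from -1.56 to 0.0233 and that of Dnajb4 from -0.35 to 0.0466, both turning above 0 without WT replicate 2. Leaving out a mouse gave between 24 and 30 members whose genotypes do not overlap, since 1 library fewer makes overlap rarer. In those fits the median log2 fold change over all J-domain genes tested was between -0.0028 and 0.026. Of the 69 companion genes, 4 were called as reported, 11 by DESeq2 with or without independent filtering, 13 by the likelihood ratio test, 2 with RLE normalization, 2 with a GC correction, 2 with a length correction, 21 with no filter, 1 with at least 1 CPM in 2 libraries, and between 8 and 9 with a mouse left out. The causes of these shifts were not tested. The replicate numbers in the labels number different mice, and same-numbered libraries correlated at 0.066 in their deviations. The paper calls the mice littermates without saying which shared a litter, so this correlation does not settle whether same-numbered mice are paired. With the replicate block the fit called 11 companion genes and 1 J-domain gene, Dnaja4. With a mouse left out, 1 genotype has a single library, which is assumed to vary like the pair of the other. Between replicate libraries chi-square over its degrees of freedom was 113 in WT and 32.3 in Eko mice, so the spread between mice exceeded counting error and their number limits these comparisons.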
